A study of Mus musculus with 45 samples.

Results

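The transcripts of 10 immediate early genes were followed by RNA-seq in cultured mouse embryonic stem cells (mESCs): the AP-1 genes Jun, Junb, Jund, Fos, Fosb and Fosl1, together with Egr1, Atf3, Ier2 and Dusp1. The 10 were taken by name from the 55401 genes in the tables and the choice was made on a measured value: Jun was selected on its higher group mean after the degrader of EHMT2 was washed out than in the DMSO control, and the question was whether its relatives stayed high too. EHMT2 (also G9a) is the methyltransferase that places dimethylation on lysine 9 of histone H3. The series holds 45 libraries in 15 groups of 3.

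In the time course, the washout experiment and the sorting experiment all cells carried a degron tag on the endogenous Ehmt2 gene, the DMSO controls included, and dTAG-13 (dTAG), a degrader, or DMSO was added. The time course held 4 groups, DMSO or dTAG for 24 h and for 7 d, each from 3 clones. The washout experiment held DMSO for 15 d, dTAG for 15 d, and dTAG for 7 d followed by 8 d without it (Recovery), again from 3 clones. In the sorting experiment a MERVL-GFP reporter was also present, treatment lasted 72 h, and GFP-negative cells (mESC) were separated from GFP-positive 2-cell-like cells (2CLC), a rare state of the culture that turns on genes of the 2-cell embryo. In the Dppa4 experiment, wild-type J1 mESCs (WT) and Dppa4 knockout mESCs (KO) were treated for 48 h with DMSO or with UNC0638, which blocks the catalytic activity of EHMT2 and its partner EHMT1, in 3 clones of each genotype. The cells grew in serum and LIF, on fibroblast feeders per the study's methods. A bulk sample cannot tell fewer cells of a type from less RNA per cell.

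Immediate early genes are transcribed within minutes of a signal, without new protein synthesis. Serum, growth factors and stress reach them through MAP kinases, which act on factors bound at their promoters, and their transcripts are short-lived. JUN and FOS proteins pair as AP-1, a dimer that binds DNA through a basic leucine zipper. EGR1 is a zinc finger factor, ATF3 a stress-induced zipper protein related to FOS, IER2 a small nuclear protein, and DUSP1 a phosphatase that switches MAP kinases off again.

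The values of the first 3 experiments are the authors' means per group of normalized counts, with no spread and no test possible, and each experiment was normalized separately. A difference there is given as the log2 ratio of 2 group means, each plus 1, and is called past the fold at an absolute value of at least 1 among genes whose mean over both groups is at least 10. The Dppa4 experiment has values per library (8399885 to 12710949 gene reads each) and was tested. The Ehmt2 transcript, whose protein is the target of dTAG, had group means of 616 with DMSO and 609 with dTAG at 24 h, and 691, 557 and 546 in DMSO 15 d, dTAG 15 d and Recovery, and Dppa4 had 0 reads in all 6 KO libraries. The 12 pluripotency markers were at 10 or more normalized counts in each of the 11 group means.

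The promoters of Jun, Fos, Fosb and Junb are shown first, since the first 3 were past the fold after washout and Junb was not. RefSeq (GRCm38.p6) gave an entry for 7 of the 10 genes, and the 200 bases before the start were read 5′ to 3′ on the gene's strand. Capitals mark TGACG, the core of a cAMP response element, and TNACNTCA, a relaxed form of the full element, on either strand (CGTCA and TGANGTNA on the other strand). A full TGACGTCA holds both, so the searches overlap.
Jun, chr4:95052223-95052422, minus strand: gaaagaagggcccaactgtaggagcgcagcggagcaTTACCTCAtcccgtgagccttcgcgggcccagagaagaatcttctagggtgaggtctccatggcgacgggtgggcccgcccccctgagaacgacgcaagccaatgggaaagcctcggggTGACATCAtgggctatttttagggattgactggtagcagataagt
Fos, chr12:85473690-85473889, plus strand: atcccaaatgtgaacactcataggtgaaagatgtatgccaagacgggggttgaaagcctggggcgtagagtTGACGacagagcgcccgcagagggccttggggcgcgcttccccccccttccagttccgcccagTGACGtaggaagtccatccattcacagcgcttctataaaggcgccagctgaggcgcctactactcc
Fosb, chr7:19310046-19310245, minus strand: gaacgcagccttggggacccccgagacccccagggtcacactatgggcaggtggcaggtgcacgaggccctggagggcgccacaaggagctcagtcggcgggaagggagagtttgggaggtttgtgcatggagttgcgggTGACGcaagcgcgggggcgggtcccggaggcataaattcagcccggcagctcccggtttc
Junb, chr8:84978749-84978948, minus strand: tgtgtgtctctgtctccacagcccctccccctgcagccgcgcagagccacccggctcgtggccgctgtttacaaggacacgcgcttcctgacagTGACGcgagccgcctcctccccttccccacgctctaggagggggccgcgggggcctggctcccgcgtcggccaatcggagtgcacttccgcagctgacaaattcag

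The Jun window held TNACNTCA at 2 places, as TTACCTCA and TGACATCA, and no TGACG. Fos held TGACG at 2 places, and Fosb and Junb at 1 place each. Of the others in the table, Dusp1 held a full TGACGTCA, Atf3 held TTACGTCA ending 3 bases before its start, and Jund held TNACNTCA in a window that lies upstream of its annotated gene. Among all 32851 promoters, 15.7% held TGACG and 11.9% held TNACNTCA in the same 200 bases. These are matches of letters, and no binding was measured here.

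Jun (ENSMUSG00000052684.4, chromosome 4, 95049034 to 95052222, minus strand, GRCm38) is 1 exon long and encodes c-JUN. Its group means in the washout experiment were 800.1 in DMSO 15 d, 2026 in dTAG 15 d and 2169 in Recovery. On means plus 1, Jun was 2.71-fold above DMSO 8 d after dTAG was removed, and 2.53-fold above it with dTAG for 15 d. These 2 comparisons share the DMSO group. The gene was chosen for this pattern, so its values are given as a description.

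Fos and Fosb were high after washout together with Jun. Fos (ENSMUSG00000021250.13, chromosome 12, 85473890 to 85477273), the founding FOS gene, had group means of 3062, 5432 and 7726 in DMSO 15 d, dTAG 15 d and Recovery. Fosb (ENSMUSG00000003545.3, chromosome 7, 19302696 to 19310051), which encodes another FOS protein, had 1824, 3136 and 4597. Both were higher in Recovery than under continuous dTAG, at log2 ratios to DMSO of 1.34 and 1.33 after washout against 0.83 and 0.78 at 15 d of dTAG. Fosl1, which encodes the FOS relative FRA1, was low throughout, at 56.2, 72.5 and 36.3, and its lowest mean was in Recovery.

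The other JUN genes had group means in Recovery closer to DMSO than Jun did. Junb (ENSMUSG00000052837.7, chromosome 8, 84974484 to 84978718), often an antagonist of JUN at AP-1 sites, had group means of 1924, 2543 and 1991 in DMSO 15 d, dTAG 15 d and Recovery. Jund, the JUN gene that most cells express without a signal, had 1772, 3181 and 2051. Their log2 ratios of Recovery to DMSO were 0.05 and 0.21, below the 1.44 of Jun.

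Egr1 lay between these patterns. Its group means were 1696 in DMSO 15 d, 4401 in dTAG 15 d and 3300.0 in Recovery. With a log2 ratio of 0.96 after washout it was the gene just outside the fold limit, while at 15 d of dTAG it was past it at 1.38, beside Jun at 1.34. Dusp1, the phosphatase, had 1217, 1619 and 2002, highest in Recovery at a log2 ratio of 0.72. Atf3 had 441, 444 and 538, and Ier2 4526, 5532 and 4764. Neither moved by more than 0.29 on the log2 scale against DMSO in the washout experiment.

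**Figure D1:**
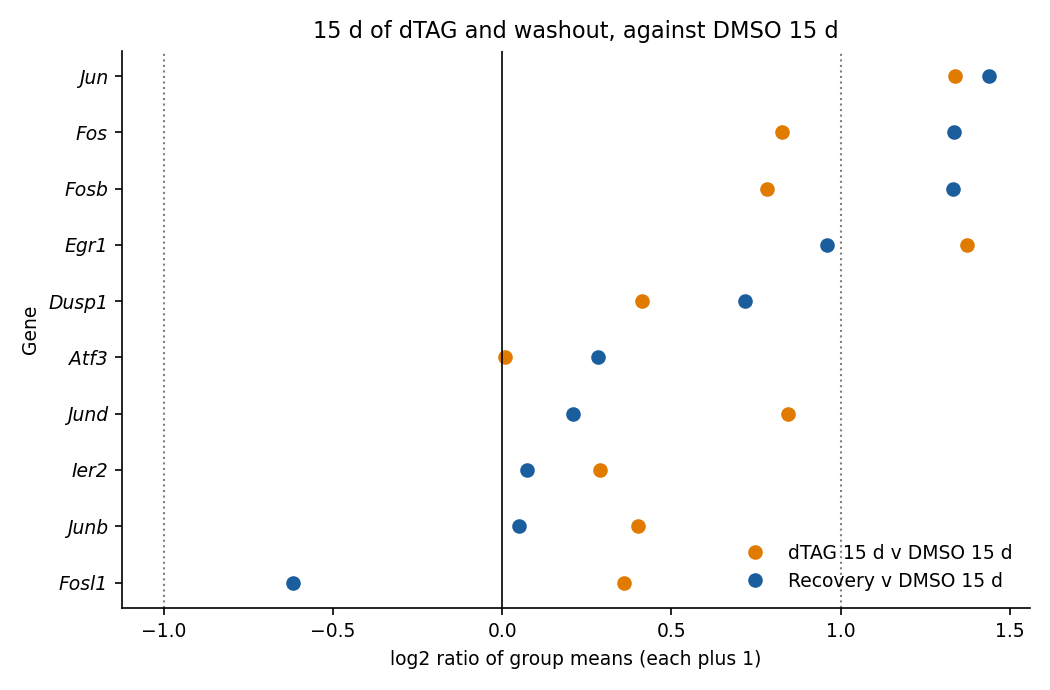
Log2 ratio of group means to DMSO 15 d (horizontal axis) for the 10 immediate early genes (vertical axis), with dTAG for 15 d in orange and Recovery in blue; dotted lines mark an absolute ratio of 1 and there are no error bars because only group means exist. Jun, Fos and Fosb lie past 1 in Recovery (1.44, 1.34 and 1.33), and Jun and Egr1 at 15 d of dTAG.

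In count, 3 of the 10 genes were past the fold upward in Recovery and 0 downward, where 1.36% of the 17021 genes compared were past it upward and 1.03% downward. This is the contrast from which Jun was picked, and the count is not read further. With dTAG at 15 d, 2 of 10 (Jun and Egr1) were past the fold upward, against 4.38% of all genes, and 0 of 10 downward, against 0.742%. All 10 had a log2 ratio above 0 with a median of 0.60 (-0.02 over all genes compared). This comparison shares its DMSO group with the contrast that picked Jun, so its counts are not independent of that choice. The other immediate early genes were above 0 in 28 of 32 (median 0.46) and feeder markers in 14 of 18 (median 0.41). Heat shock genes were above 0 in 6 of 12 (median 0.02), and the 1 past the fold was Hspa1a, at 82.7 in DMSO and 178 in dTAG. Between Recovery and dTAG 15 d, 0 of 10 were past the fold, against 7.13% of all genes, and the ratio of Jun was 0.10. This comparison shares the Recovery group with the contrast that picked Jun. Of the other immediate early genes, 7 of 32 were past the fold downward in that comparison, Nr4a3, Phlda1, Ccn2 and Arc among them, with a median of -0.56. Over the same comparison the 2-cell-like markers were lower in Recovery, with 11 of 11 past the fold downward and a median log2 ratio of -3.94. In Recovery 7 of the 12 on the list were at 10 or more. Some of the 11, such as Tcstv3 (6.33 and 168) and Zfp352 (6.40 and 165), were thus counted only through dTAG 15 d.

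The other immediate early genes were not raised after washout as a list. Of 31 measured, 0 were past the fold in Recovery against DMSO in either direction, and their median log2 ratio was -0.01. None of 9 other AP-1 family genes and none of 14 feedback inhibitors of MAP kinases (the Dusp, Spry and Spred genes) was past it either. Among 10 genes known to respond to AP-1, 9 had a log2 ratio below 0 and 1 above, with a median of -0.39 (-0.01 over all genes compared). Of these, Cd44, an adhesion receptor, was past the fold downward, at 166 in Recovery and 484 in DMSO. Among 11 genes of the integrated stress response, which ATF3 belongs to, Ddit4, an inhibitor of mTORC1, was past it upward at 3008 and 1351.

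Fibroblast (feeder) markers were lower in Recovery. Of 18 measured, 12 were past the fold downward against DMSO, with a median log2 ratio of -1.19, and the summed level of the 20 on the list was 4396 in Recovery, 9375 in DMSO 15 d and 10835 in dTAG 15 d. Col1a1, a collagen of fibroblasts, had 136 in Recovery and 519.8 in DMSO 15 d. Fibroblasts express immediate early genes too, and the part of feeder cells in the values of Jun, Fos and Fosb was not tested. Nor was their part tested in the lower values of Cd44 and the other genes known to respond to AP-1. Heat shock genes, which respond to handling, had 0 of 12 past the fold and a median of -0.12.

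In the time course Egr1, Jun, Fos and Atf3 differed more between the DMSO groups of 24 h and 7 d than between dTAG and DMSO of either time. Egr1 had group means of 23109 and 7745 in DMSO at 24 h and 7 d, and 14914 and 6090.0 in dTAG. Jun had 3731 and 1537 in DMSO, and 2974 and 1729 in dTAG. Fos had 12230.1 and 6045 in DMSO, and 11168 and 4770.3 in dTAG. For all 3 genes both 7 d groups lay below both 24 h groups. Egr1 ranked 37 from the top of all genes by level in DMSO 24 h and 211 in DMSO 7 d, and Fos ranked 104 and 296.

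Between the DMSO groups, all 10 genes were lower at 7 d than at 24 h, and 4 were past the fold: Egr1 at -1.58, Jun at -1.28, Atf3 at -1.28 and Fos at -1.02. Of all genes compared, 1.21% were past it downward and 0.674% upward. The other immediate early genes had 6 of 31 past it downward and 0 upward. They included Arc, a neuronal activity gene, from 5084 to 1424, and Ccn1, a matrix protein induced by serum, from 5779 to 2034. The heat shock genes Hspa1a and Hspa1b, inducible HSP70 chaperones, were lower as well, Hspa1a from 679.7 to 145, and the other 10 on that list were not past the fold. Of 18 feeder markers, 4 were past it downward and 1 upward. The part of feeders or of heat shock in this difference was not tested.

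Against DMSO of the same time, dTAG put 0 of the 10 genes past the fold at 24 h and 0 at 7 d, where 4.74% and 8.39% of all genes were. The log2 ratios at 24 h ran from -0.97 for Fosl1, just outside the fold limit, to 0.27 for Jund, with Egr1 at -0.63 and Jun at -0.33. At 7 d they ran from -0.77 for Fosb to 0.70 for Fosl1, with Jun at 0.17. Fosb had 5005 in DMSO and 2927 in dTAG at 7 d. At 24 h, Hspa1a, the inducible chaperone, had 679.7 in DMSO and 179 in dTAG, and its part in the ratios of the 10 genes was not tested. Recovery followed 7 d of dTAG. At that point of the time course Jun was at 0.17 on the log2 scale against DMSO, while Fos was at -0.34 and Fosb at -0.77.

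Other genes of the pathway were past the fold with dTAG at both times. Of 31 other immediate early genes at 24 h, 3 were past it downward and 1, Gadd45g, upward. Those downward were Arc from 5084 to 2419, Ccn1 from 5779 to 2751 and Ier5l from 221 to 89.2. At 7 d, 4 of 32 were past it upward and 0 downward: Myc, a growth regulator, from 87.9 to 330.2, Npas4, Nr4a3 and Nr4a2. Npas4, at 8.88 in DMSO and 30.7 in dTAG, was counted past the fold only through dTAG. Of 14 MAP kinase feedback genes, 2 were past it upward, the phosphatases Dusp10 at 1.13 and Dusp5 at 1.06. Dusp10 was past the fold upward with dTAG also at 24 h (1.28), at 15 d (1.35), in sorted mESC (1.51) and in sorted 2CLC (1.19), whereas no gene of the 10 was past it in all of these comparisons. Of 20 kinases and factors upstream (the Mapk and Map2k genes, Srf, Elk1 and others), 19 reached a mean of 10 at 24 h and at 7 d. None of these was past the fold at either time. Mapk10, which encodes JNK3, was past it with dTAG at 15 d (5.30 in DMSO and 30.3 in dTAG) and in sorted mESC (2.61 and 17.7). Its DMSO means there were under 10, so it reached the limit only through dTAG. No course over time is read from this. Feeder markers had a summed level of 3763 in DMSO 7 d and 6954 in dTAG 7 d.

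**Figure D2:**
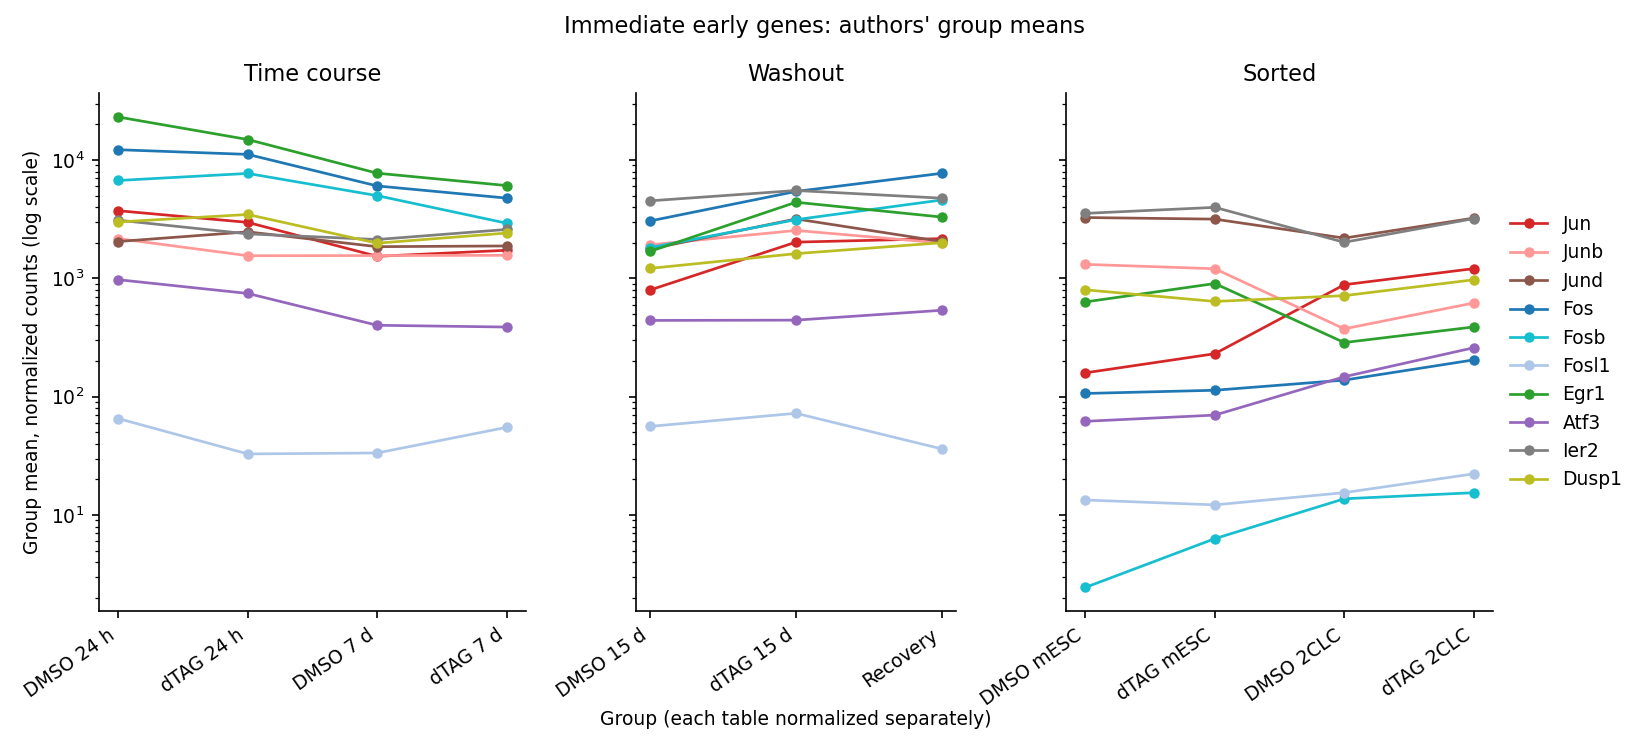
Group means of the 10 genes in normalized counts on a log scale (vertical axis) for the groups of the time course, the washout and the sorting experiments (horizontal axis), 1 colour per gene; lines only join the points of a gene, levels are not comparable between panels, and no spread is shown. Egr1 runs from 23109 down to 6090.0 in the time course, and Jun goes from 159 to 884 between sorted mESC and 2CLC with DMSO while Junb goes from 1314 to 375.

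In sorted cells the JUN genes parted. Jun had group means of 159 in mESC and 884 in 2CLC with DMSO, and 231 and 1209.5 with dTAG. Junb had 1314 and 375 with DMSO, and 1207 and 620.1 with dTAG. Jun was 5.53-fold higher in 2CLC than in mESC with DMSO and 5.22-fold higher with dTAG, whereas Junb was 3.50-fold and 1.95-fold lower. Jund, at 3269 and 2191 with DMSO and 3169 and 3232 with dTAG, was not past the fold.

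Atf3 and Egr1 also differed in opposite directions. Atf3, the stress-induced gene, had 62.0 and 148 in mESC and 2CLC with DMSO, and 70.0 and 259 with dTAG, log2 ratios of 1.24 and 1.88. Egr1 had 633 and 287 with DMSO, and 905 and 389 with dTAG, log2 ratios of -1.14 and -1.22. Fos had 107 in mESC and 138 in 2CLC with DMSO, and 113 and 205 with dTAG. Fosb, at 2.45 to 15.5 over the 4 groups, and Fosl1, at 12.2 to 22.3, were close to the limit of 10 below which no ratio was counted. Ier2 ran from 2019 to 3985 and Dusp1 from 639 to 974.

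With DMSO, 9 of the 10 genes reached a mean of 10, and 2 of them (Jun, Atf3) were past the fold upward and 2 (Junb, Egr1) downward in 2CLC. Of all genes compared, 14.7% were past it upward and 9.03% downward. With dTAG, Jun, Atf3 and Fosb were past it upward and Egr1 downward, against 14.4% and 6.75%. Fosb passed on group means of 6.32 and 15.5, and fell short with a pseudocount of 5. Of the other immediate early genes, 5 of 28 were past the fold upward and 6 downward with DMSO, and 5 of 30 upward and 3 downward with dTAG. With DMSO, Ccn2, a serum-induced matrix protein, was at 1.92, while Klf4, which is also a pluripotency factor, was at -1.64 and Trib1, a pseudokinase, at -1.86. Of 12 pluripotency markers, 5 were past the fold downward in 2CLC with DMSO.

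**Figure D3:**
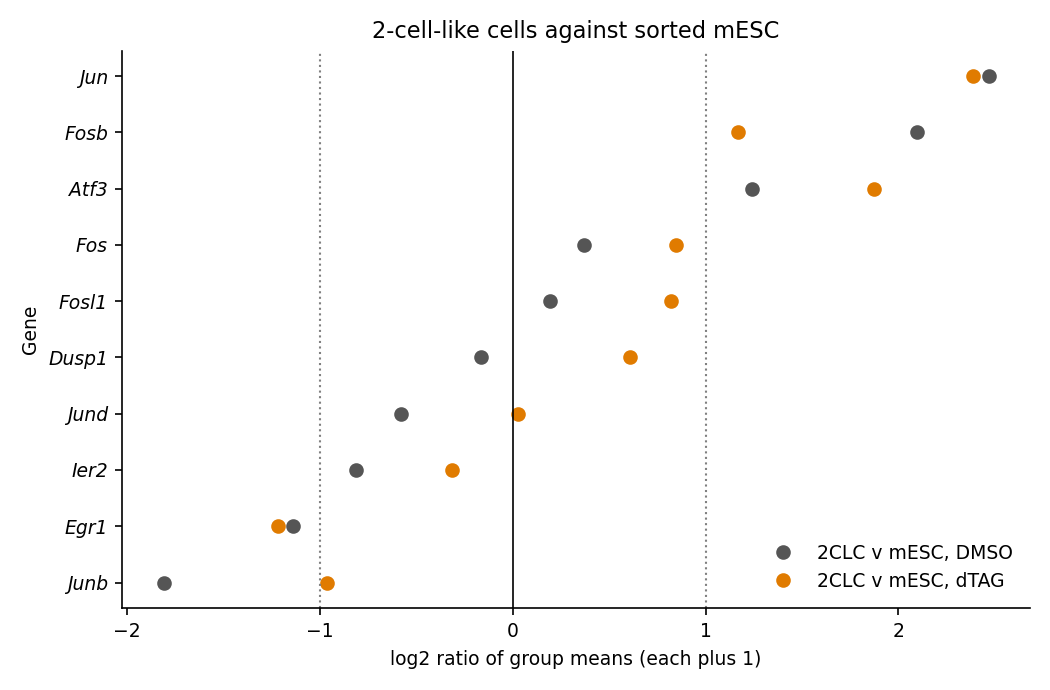
Log2 ratio of group means, 2CLC to sorted mESC (horizontal axis), for the 10 genes (vertical axis), with DMSO in grey and dTAG in orange; dotted lines mark an absolute ratio of 1 and no error is available. Jun stands at the right (2.47 and 2.38) and Junb and Egr1 at the left (Junb -1.81 with DMSO); Fosb with DMSO rests on means of 2.45 and 13.7, under the limit of 10.

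The heat shock genes Hspa1a and Hspa1b were higher in 2CLC beside Jun and Atf3. Hspa1a had 236 in mESC and 4787 in 2CLC with DMSO, and 674 and 10547 with dTAG. In all, 2 of 12 heat shock genes were past the fold with DMSO and 3 of 12 with dTAG. Ppp1r15a, which ends the integrated stress response by dephosphorylating eIF2α, was past the fold with both treatments, at 1.70 and 2.07. Feeder markers were higher in 2CLC too, with 5 of 17 past the fold with DMSO and 9 of 18 with dTAG, and summed levels of 1135, 2232, 2302 and 5251 in DMSO mESC, DMSO 2CLC, dTAG mESC and dTAG 2CLC. The 2CLC had been sorted for GFP, which the mESC line carries as its MERVL reporter, and the part of heat shock, feeders or sorting in these ratios was not tested.

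dTAG itself put 0 of the 10 genes past the fold in sorted mESC (of 9 with a mean of at least 10) and 0 of 10 in sorted 2CLC, against 6.86% and 7.35% of all genes. In 2CLC all 10 had a higher mean with dTAG, from 0.16 for Fosb to 0.81 for Atf3, with a median of 0.53 against 0.01 over all genes. Other lists were above 0 there too: 25 of 29 other immediate early genes (median 0.52), 14 of 14 MAP kinase feedback genes (0.34) and 11 of 12 heat shock genes (0.47), with Hspa1a and Hspa1b past the fold. In mESC 5 of 9 were higher, and Jun was at 0.53, while 12 of 17 feeder markers were past the fold upward. Of the genes known to respond to AP-1, 4 of 10 were past the fold upward with dTAG in 2CLC: Cd44 at 1.97, the protease Plau at 1.68, vimentin (Vim) at 1.26 and the receptor Plaur at 1.08. In the same comparison 14 of 18 feeder markers were past the fold upward, in cells sorted for the MERVL-GFP reporter of the mESC line, and the part of feeders in these 4 ratios was not tested.

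Levels of the JUN genes were compared with each other per kilobase of exon, which removes the effect of gene length. In DMSO 15 d the level per kilobase was 251 for Jun, 836 for Junb and 1062 for Jund, so that Jun made up 11.7% of the sum of the 3. The share of Jun was 17.4% in dTAG 15 d and 24.5% in Recovery, where the Recovery and DMSO values are those Jun was chosen on. It was 1.93% in sorted mESC and 15.8% in 2CLC with DMSO, and 2.90% and 14.7% with dTAG. Jund had the greatest share of the 3 in all 15 groups, although in the 8 groups of sorted cells and of the Dppa4 experiment its antisense transcript Gm11175 was counted at 70.1% to 87.7% of its level. The share of Junb was lower in 2CLC than in mESC, from 22.1% to 9.29% with DMSO.

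Among the FOS genes, Fos kept 75.9% to 82.4% of the sum per kilobase over the 7 groups of the time course and the washout, while its own level per kilobase in the washout was 1302 in DMSO 15 d, 2309.6 in dTAG 15 d and 3285 in Recovery. Fosb had 18.0% in DMSO 15 d, 17.6% in dTAG 15 d and 18.2% in Recovery. In the Dppa4 experiment, where Fos was low, Fosl1 made up 55.6% in WT DMSO and 43.8% in KO DMSO. Fos ranked 425 by level in Recovery but 9280 in sorted DMSO mESC and 11823 in WT DMSO, and Fosb ranked 819, 20561 and 16394. These experiments differ in cells, handling and library preparation, which cannot be told apart.

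**Figure D4:**
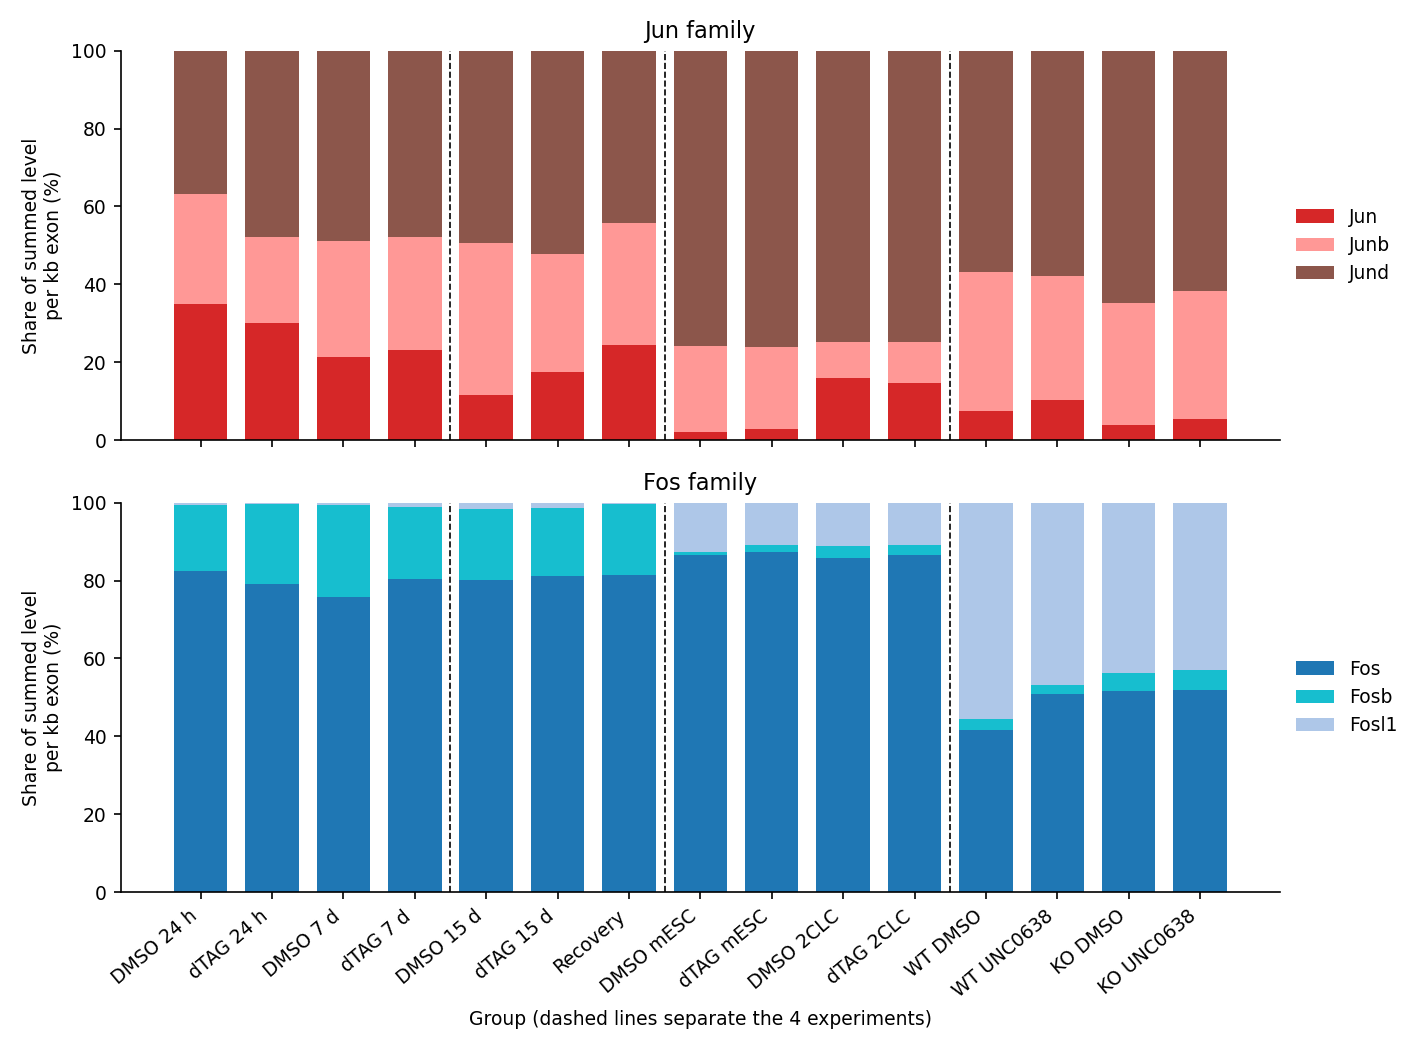
Share of each gene in the summed level per kilobase of exon of the JUN genes (upper panel) and the FOS genes (lower panel), in percent, for the 15 groups; dashed lines separate the 4 experiments and bars are shares of group means. Jun takes 11.7% in DMSO 15 d and 24.5% in Recovery, and 1.93% and 15.8% in sorted DMSO mESC and 2CLC. Its shares in DMSO 15 d and Recovery use the values it was chosen on.

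Reads from the opposite strand differed between the experiments. Gm11175, a transcript antisense to Jund that shares 919 bases with it, had 0.0153% to 0.129% of the Jund level in the time course and 0.0767% to 0.195% in the washout, but 84.2% to 87.7% in sorted cells and 70.1% to 72.7% in the Dppa4 experiment. Junos, antisense to Jun over 689 bases, had 0.151% to 0.531% of the Jun level in the time course and the washout, 9.55% to 11.0% in sorted cells and 5.39% to 10.3% in the Dppa4 experiment. The time course and the washout used a kit that keeps the strand, and the sorted and Dppa4 libraries were made elsewhere. Whether those libraries and their counting kept the strand is not given in the sources used here. If they did not, reads of Jun and Jund cannot be told from those of their antisense partners, nor reads of Fosl1 from Ccdc85b (2767 shared bases) or of the end of Junb from Prdx2 (351 shared bases).

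The Dppa4 experiment allowed tests. All 10 genes passed the expression filter, with the fewest reads for Fosb (0 to 20 per library) and the most for Ier2 (1835 to 3270). Jun had 201, 283 and 209 normalized counts in the WT DMSO libraries, 155, 405 and 252 in WT UNC0638, 127, 148 and 109 in KO DMSO and 145, 131 and 197 in KO UNC0638. All 3 KO DMSO libraries lay below all 3 WT DMSO libraries, while the UNC0638 groups of WT and KO overlapped. How many of all genes separate without overlap in this experiment was not counted. With DMSO, 24.1% of them had an unadjusted limma p under 0.05 between KO and WT. The log2 fold change of KO to WT was -0.84 (SE 0.30, limma adjusted p = 0.0999) with DMSO and -0.69 (SE 0.30, limma adjusted p = 0.206) with UNC0638, neither past the threshold.

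Egr1 had 873, 606 and 1071 in WT DMSO, 809, 837 and 995 in WT UNC0638, 576, 446 and 318 in KO DMSO and 678, 324 and 362 in KO UNC0638. The KO libraries lay below the WT libraries of the same treatment without overlap. With UNC0638 the log2 fold change of KO to WT was -1.03 (SE 0.28, limma adjusted p = 0.0459), which makes Egr1 the 1 gene of the 10 called, where 3.29% of 17258 genes were. Of the 10, 5 had an unadjusted limma p under 0.05 in this comparison, against 20% of all genes. This call was lost without 1 of 7 of the 12 libraries (WT DMSO 1, WT UNC0638 1, 2 or 3, KO DMSO 2, KO UNC0638 2 or 3), with adjusted p from 0.0121 to 0.15 and fold changes from -1.35 to -0.82 over limma fits without 1 library, edgeR gave an adjusted p of 0.0712, and DESeq2 gave 0.0198 with a fold change of -0.97, short of 1. With DMSO the fold change was -0.93 (SE 0.28, limma adjusted p = 0.0548, DESeq2 adjusted p = 0.0243).

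Atf3 had 34.9, 84.9 and 43.7 in WT DMSO, 41.4, 98.1 and 74.3 in WT UNC0638, 8.81, 52.0 and 30.2 in KO DMSO and 12.9, 41.9 and 27.1 in KO UNC0638. WT and KO overlapped under both treatments, and the log2 fold changes of -1.03 (SE 0.59, limma adjusted p = 0.304) and -1.41 (SE 0.59, limma adjusted p = 0.188) did not pass. Dusp1 had 468, 518 and 626 in WT DMSO, 364, 455 and 659 in WT UNC0638, 509, 626 and 479 in KO DMSO and 338, 273 and 351 in KO UNC0638. All 3 KO UNC0638 libraries were below the 3 of KO DMSO, at a log2 fold change of -0.74 (SE 0.22, limma adjusted p = 0.116) that did not pass. They were also below the 3 of WT UNC0638, at -0.58 (SE 0.22, limma adjusted p = 0.139), which did not pass either.

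The other 6 genes gave no call in the limma fit for the effects of genotype and of UNC0638. Junb was at 799.6 ± 36.6 (SD, n = 3) in WT DMSO, 594 ± 104 in WT UNC0638, 773 ± 97.6 in KO DMSO and 696 ± 144 in KO UNC0638. Jund was at 925 ± 109, 789 ± 155, 1152 ± 176 and 946 ± 194 in the same order, and Ier2 at 2530.1 ± 304, 1921 ± 253, 2699.7 ± 69.5 and 2486 ± 310.0. Fos, at 47.1 ± 7.53, 50.6 ± 1.13, 47.4 ± 25.0 and 35.7 ± 20.6, was low in these cells and Fosl1 was of the same order, at 54.4 ± 16.8, 40.4 ± 11.4, 34.8 ± 5.85 and 25.4 ± 2.48. Fosb, at 8.15 ± 8.80, 6.22 ± 2.92, 11.3 ± 11.2 and 9.46 ± 4.06, was the lowest of the 10. Among these 6 genes too, libraries of some groups lay apart without overlap. For Junb and Ier2 all WT UNC0638 libraries were below WT DMSO, and for Fosl1 all KO UNC0638 libraries were below KO DMSO. For Ier2 all KO UNC0638 libraries were above WT UNC0638.

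**Figure D5:**
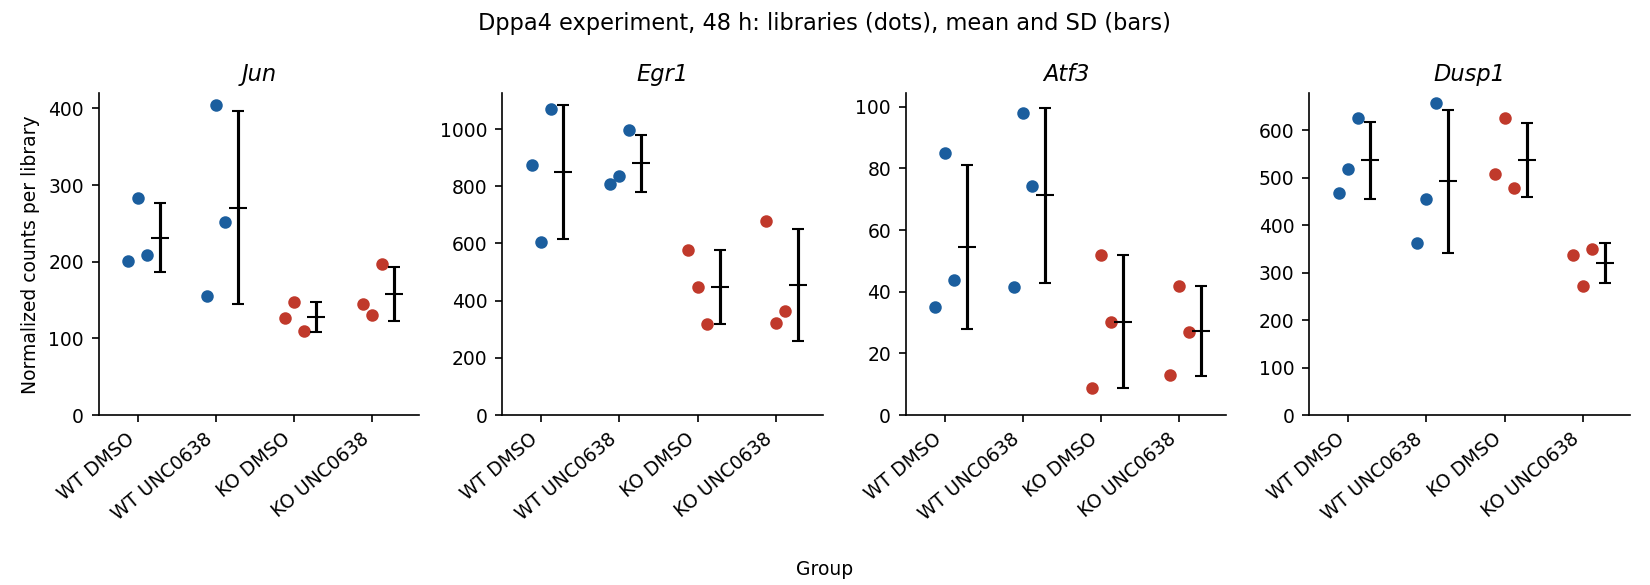
Normalized counts per library (vertical axes, linear from 0) of Jun, Egr1, Atf3 and Dusp1 in the 4 groups of the Dppa4 experiment, WT in blue and KO in red; black bars are the mean and SD of 3 libraries. Egr1 in KO UNC0638 (678, 324 and 362) lies below WT UNC0638 (809, 837 and 995) without overlap, while the groups of Atf3 overlap.

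For UNC0638 in WT, 0 of the 10 genes were called by limma, edgeR or DESeq2, against 0% of 17258 genes by limma and 13 genes by DESeq2. An unadjusted limma p under 0.05 was found for 2 of the 10, Junb and Ier2, and for 8.71% of all genes. In WT the effect of UNC0638 on Jun was 0.14 (95% interval -0.50 to 0.77) and on Egr1 0.08 (-0.51 to 0.67). In KO 0 of 10 were called by limma, edgeR or DESeq2, against 0.464% of all genes by limma, and 1, Dusp1, had an unadjusted limma p under 0.05, against 15.4%. Ier5, another immediate early gene, was called higher there (1.27, SE 0.25, limma adjusted p = 0.0385), 1 of 29. KO against WT with DMSO gave 0 of 10 by limma, edgeR or DESeq2, against 4.43% of all genes by limma, and 2, Jun and Egr1, had an unadjusted limma p under 0.05, against 24.1%. The difference of the UNC0638 effect between KO and WT was called for 0 of 10 genes and for 0% of all genes by limma, with 0 also by edgeR and DESeq2, and 0 of the 10 had an unadjusted limma p under 0.05, against 6.23%.

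Other genes of the pathway did pass between genotypes. Fosl2, which encodes the FOS relative FRA2, was lower in KO with DMSO (-1.02, SE 0.29, limma adjusted p = 0.0466) and with UNC0638 (-1.19, SE 0.29, limma adjusted p = 0.0306), and was the 1 of 9 other AP-1 family genes called. Of 29 other immediate early genes, 3 were called lower in KO with DMSO (Ier5, Ccn1 and Ccn2) and 1 higher (Klf4), and 0 of 29 were called with UNC0638 by limma, where 5 had an unadjusted p under 0.05. Of 14 MAP kinase feedback genes, Dusp4 was called lower with DMSO (-1.30), and Dusp4, Dusp5 and Dusp7 with UNC0638. Of 19 upstream kinases and factors and of 11 genes of the integrated stress response, 0 were called in either comparison by limma, while 0 and 2 with DMSO and 1 and 1 with UNC0638 had an unadjusted p under 0.05. Of 10 genes known to respond to AP-1, Ccnd1 and Cd44 were called lower in KO with DMSO, and Ccnd1 with UNC0638. Of 12 heat shock genes, Hspa1b was called lower with UNC0638. Feeder markers were lower in KO as well. With DMSO 18 of 18 had a log2 fold change below 0, 4 of them called. With UNC0638 18 of 18 did, with a median of -0.71 and 1 called (Lox). The part of feeders in the values of Jun and Egr1 was not tested.

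The genes whose level ran most like Jun were found by Pearson correlation. Over the 11 group means of the first 3 experiments, each centred in its experiment, they were Btg1 (0.96), an antiproliferative gene and itself an early response gene, Dazl (0.96), Ptp4a1 under both of its gene IDs (0.95 and 0.95) and the pseudogene Gpx2-ps1 (0.95), out of 13943 genes. Fosb (0.91, rank 27) and Atf3 (0.90, rank 45) were the relatives most like it, Fos had 0.78 (rank 809), and Junb had -0.59. Fosb was at only 2.45 to 15.5 in the sorted groups. The points include the washout means on which Jun was picked. The points of one experiment share a normalization. Over the 12 libraries of the Dppa4 experiment the 5 most like Jun were Eef1d, Tpm1, Sfrp2, Timm17a and Gsn (0.92 to 0.90), those most like Egr1 were Krt17, Sh2b3, Gclc, Gjb1 and Cldn4 (0.93 to 0.88), and those most like Fos were Myo6, Mast1, Soat1, Sarm1 and Tesk2 (0.92 to 0.85). No gene was shared between these lists of 5, but lists this short cannot show whether Jun, Egr1 and Fos ran apart. Over these libraries Egr1 had 0.67 with Fos and 0.57 with Jun, and Fos had 0.34 with Jun. Among the 10 genes Atf3 (0.70) was most like Jun there.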

How the data were processed

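RNA-seq values of 45 libraries were taken from 4 deposited gene tables. The authors trimmed reads with Trim Galore (0.6.7), aligned them to mm10 with STAR (2.7.10) with introns not allowed, so that reads across splice sites could be lost from the genes with introns, counted genes of GENCODE vM25 with TEcounts at default settings, and normalized with DESeq2 (1.34.0); the strand setting is not given in the sources used here. The deposited signal values are counts divided by size factors: the authors' group means except in the Dppa4 experiment, which has values per library. Deposited tables of the authors' own fold changes and p-values, and those of repeat families, were not used. No column belonged to other samples.

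In the Dppa4 experiment values were whole multiples of what 1 read is worth in the library (100% of values within 0.001 of a whole number), which gave back the reads. limma (3.58.1, R 4.3.3) with a trend was fitted to log2 of the normalized count plus 1 for 17258 genes that passed edgeR's (4.0.16) filter, in 4 groups. Called genes had a Benjamini-Hochberg adjusted p under 0.05 over all genes and an absolute log2 fold change of at least 1. The replicates are 3 clones per genotype in the labels, and p-values measure the spread between these libraries. The fit was tested on simulated data. Of the groups compared, same-numbered libraries deviated together in every pair only for WT DMSO and WT UNC0638 (r from 0.14 to 0.68 over genes). They did so too for WT DMSO and KO UNC0638, which were not compared (r from 0.19 to 0.33). The main fit did not use the replicate number. Alternatives were edgeR and DESeq2 (1.42.0) on the reads, TMM scaling, pseudocounts of 0.5 and 5, no filter, no fold floor, blocking on the replicate number and leaving out 1 library at a time, and for group means pseudocounts of 0 and 5, centring, mean minimums of 0 and 50 and a fold of 0.5. Exon lengths and coordinates came from GENCODE vM21 (GRCm38), where 8 of the 10 gene IDs have the same version; Junb and Ier2 do not. Named genes were all 10, and of each list at most 4 called genes with the largest change per comparison, and the 5 genes most like Jun, Egr1 and Fos among those with a mean of at least 50. Ddit3 has 2 gene IDs and was left out. The 10 genes and all lists were chosen with earlier results of these data known.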

Additional observations from a re-analysis of the deposited data

How the results depend on the processing

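For group means, a fold of 0.5 in place of 1 on the log2 scale raised the number of the 10 genes past it to 2 for dTAG at 24 h, 2 at 7 d, 7 for DMSO 7 d against DMSO 24 h, 5 for dTAG at 15 d, 6 for Recovery against DMSO, 4 for Recovery against dTAG, 6 and 8 for 2CLC against mESC with DMSO and dTAG, 2 for dTAG in sorted mESC and 6 in sorted 2CLC. Centring on the median of all genes brought Fosl1 to -1.02 and the count for Recovery against dTAG to 1, and without the filter Fosb gave 1 for dTAG in sorted mESC. A pseudocount or a filter cannot turn the sign of a ratio, and centring turned the sign of no called ratio of the 10 genes. Jun, Fos and Fosb remained past the fold in Recovery under each of these settings. At their group means these settings could hardly move the ratios, and none of them stands in for the missing spread between libraries. Over all genes, the counts past the fold ranged with these settings from 247 to 3280 for dTAG at 24 h (852 as reported), from 575 to 4560 at 7 d (1510), from 108 to 2129 between the DMSO groups (336), from 386 to 2799 at 15 d (890), from 210 to 2256 for Recovery against DMSO (407), from 566 to 3642 against dTAG (1241), from 2336 to 9130 and from 1993 to 8480 for 2CLC with DMSO (4101) and dTAG (3654), and from 370 to 4100 and from 567 to 5195 for dTAG in sorted mESC (1131) and 2CLC (1288).

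In the Dppa4 experiment, Egr1 for KO against WT in UNC0638 was lost with edgeR, DESeq2, a pseudocount of 0.5 and no filter (0 of 10 called), and the fits without 1 library gave 0 to 1. The labels give WT and KO the same replicate numbers. Same-numbered libraries correlated above 0.1 in 12 of 18 pairs, and a library was most like its own number in 24 of 36 cases, a hint of pairing from the data. Each pair was above 0.1 between WT DMSO and KO UNC0638, across genotypes and not compared (0.19 to 0.33). Each was also above 0.1 between WT DMSO and WT UNC0638, where the replicate block gave 0 called genes, as without it. Between the other groups compared at least 1 pair was below 0.1 (WT and KO with UNC0638 from -0.17 to 0.27), and the numbers were not taken as pairs there. With the block, 2 of the 10 genes were called there, Egr1 and Atf3 (adjusted p = 0.0326), and UNC0638 in KO had 172 genes called in place of 80. That count was 37 with edgeR, 245 with DESeq2 and 12 without the filter, and 2 to 373 without 1 library. UNC0638 in WT had 13 with DESeq2 and 0 to 1 without 1 library, KO against WT 280 to 950 (765 with all) with DMSO and 177 to 630 (567) with UNC0638, where DESeq2 gave 854, and the difference of the UNC0638 effect 0 to 1. Fosb and Fosl1, with few reads, limit what a fold change can show, and no spread exists for the group means. In the other 3 experiments, tests by library, the replicate block and leaving out a library were not run because the values used are group means.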
